A study of Mus musculus with 26 samples.

Results

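The genes followed here are 10 that are subject to genomic imprinting and known for roles in growth, measured in motor neuron spheroids: H19, Igf2, Meg3, Dlk1, Peg3, Peg10, Ndn, Mest, Cdkn1c and Plagl1. They were taken by symbol, with earlier results of these data known, and all 10 were found once among the 56941 genes of the deposited tables. The cells derive from the HBG3 line of mouse embryonic stem cells, which carries a GFP reporter driven by the promoter of HB9 (Mnx1), a motor neuron transcription factor, and which had been expanded on feeder cells. All groups shared the differentiation with retinoic acid and purmorphamine, CNTF and GDNF from day 5, and seeding on a fibrin platform at about day 8. RNA sequencing gave 26 libraries. The study set mechanical against biochemical stimulation of these neurons.

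Spheroids of the actuated array group (n = 4) lay on a magnetically driven silicone matrix, actuated daily (30 min, 4 Hz), and those of the static array group (n = 4) lay on such a matrix at rest. The biochemical arm used medium carrying myokines from cultured muscle, and its groups are labelled high intensity (n = 6), low intensity (n = 6) and control (n = 6). The labels do not pair the intensity names with the stimulated and unstimulated muscle of the design text, so the groups are named by intensity. No label says that replicates came from separate cultures, so every p-value measures the spread between these libraries, which may be technical.

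In imprinted genes, the copy from 1 parent is silenced by marks laid down in the germ line, mostly DNA methylation at CpG-rich control regions. Paternally expressed genes such as Igf2, Dlk1, Peg3 and Mest are often growth promoters, and maternally expressed ones such as H19 and Cdkn1c often restrain growth. Several lie in clusters with a shared control region, as H19 with Igf2 and Meg3 with Dlk1. Most are high in the fetus and fall after birth, and some, such as Ndn and Peg3, stay high in neurons. These data give total RNA per gene and do not separate the parental copies.

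Total counts were between 1551334 and 13162635 in 21 libraries, called the deeper libraries here, which had over 1000000 counts on protein-coding genes. The other 5 libraries were control replicate 4, high-intensity replicates 4 and 5, low-intensity replicate 6 and static-array replicate 3, with totals from 1536 to 1457250. The highest of these totals was that of control replicate 4, with 272212 counts on protein-coding genes. All 10 genes had 0 counts in low-intensity replicate 6, 3 of the 10 (Cdkn1c, Dlk1 and Plagl1) had 0 counts in high-intensity replicate 4, and 1 (Plagl1) had 0 counts in control replicate 4. Normalised counts are therefore given for the deeper libraries, as CPM (the share of a library's count, scaled to 1000000) after TMM scaling, and each test is given for all 26 libraries and for the deeper ones. In the deeper libraries a count of 0 would allow up to between 0.223 and 1.90 CPM, counting error only, and every one of the 10 genes was above that. The arms differed in depth with no overlap: the 7 deeper array libraries had 7269276 to 13162635 counts and the 14 of the biochemical arm 1551334 to 3971348. All 8 motor neuron markers checked had counts in every group, with a summed level of 373 to 866 CPM per library.

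Sequences of the reference promoters are shown for 3 of the genes: Dlk1 and Meg3, which share a cluster and were compared with each other, and Peg3, whose median level per length was closely followed by that of H19. They are RefSeq sequences of build GRCm38.p6, from 250 bases before to 50 after the gene's start, 5′ to 3′ on the gene's strand, and were not read from these samples. Capitals mark matches to GGGGCCCC, a consensus for the Plagl1 protein, or to TATAAA, the TATA box, on either strand, and the Dlk1 window holds neither.
Peg3, chr7:6730370-6730669, minus strand: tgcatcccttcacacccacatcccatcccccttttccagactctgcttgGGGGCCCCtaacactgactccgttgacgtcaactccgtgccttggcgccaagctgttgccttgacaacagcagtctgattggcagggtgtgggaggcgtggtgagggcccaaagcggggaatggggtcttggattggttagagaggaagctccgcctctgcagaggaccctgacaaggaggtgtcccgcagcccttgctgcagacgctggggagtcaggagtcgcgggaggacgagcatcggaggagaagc
Dlk1, chr12:109452573-109452872, plus strand: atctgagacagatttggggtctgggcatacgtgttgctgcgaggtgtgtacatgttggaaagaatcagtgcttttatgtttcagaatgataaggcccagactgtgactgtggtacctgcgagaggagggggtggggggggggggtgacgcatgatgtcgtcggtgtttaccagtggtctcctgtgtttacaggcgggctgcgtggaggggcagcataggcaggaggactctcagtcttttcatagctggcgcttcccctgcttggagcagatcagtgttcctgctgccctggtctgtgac
Meg3, chr12:109540746-109541045, plus strand: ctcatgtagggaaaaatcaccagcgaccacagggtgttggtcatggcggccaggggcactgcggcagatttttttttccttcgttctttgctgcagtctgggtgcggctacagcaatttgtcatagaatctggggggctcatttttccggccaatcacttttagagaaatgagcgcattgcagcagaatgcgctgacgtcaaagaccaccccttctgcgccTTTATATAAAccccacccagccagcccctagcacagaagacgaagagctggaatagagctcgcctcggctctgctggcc

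Promoter windows were found for 7 of the 10 genes, 13 windows in all, and H19, Peg10 and Cdkn1c are named only. The 13 windows held a median of 13 CpG dinucleotides, against 7 over all 32851 windows, and a median GC content of 59.3% against 52.7%. GGGGCCCC, which reads the same on both strands, occurred in 1.08% of all windows and, among these 13, in that of Peg3. TATAAA, searched on both strands, occurred in 13.6% of all windows and in 1 of the 13, the Meg3 window shown, where both strands match in an overlapping run. AAGATGG, the core of the YY1 site, was in 6.34% of all windows and in 0 of the 13. A match is a description of the letters and not of binding.

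H19 and Igf2 also carry microRNAs, shown with their seeds (bases 2 to 8) in capitals because the host transcripts are among the most variable of the set. The 4 mature RNAs, as given by RefSeq, share no seed.
mmu-miR-675-5p, from H19: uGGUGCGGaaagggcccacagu
mmu-miR-675-3p, from H19: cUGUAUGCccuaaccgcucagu
mmu-miR-483-5p, from Igf2: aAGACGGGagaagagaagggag
mmu-miR-483-3p, from Igf2: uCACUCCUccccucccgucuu
The rows of Mir675 and Mir483, and those of Mir770 and Mir335 in Meg3 and Mest, held 0 counts in all 26 libraries. These data therefore give no measure of the microRNAs, and the hosts' levels are not read as one.

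Levels per transcript length, compared on the deposited TPM values, put Peg3 and H19 (a long noncoding RNA gene) highest, with medians of 152 and 150 TPM over the 21 deeper libraries. Dlk1 followed at 107 TPM, Peg10 at 62.1, Cdkn1c at 59.7, Mest at 48.2, Ndn at 41.8, Igf2 at 32.3, Meg3 at 21.1 and Plagl1 at 18.9. Neighbours in this order overlapped widely: Peg3 ranked highest of the 10 in 13 libraries and H19 in 8. Peg3 was first in all 5 control and all 4 high-intensity libraries, while H19 was first in 3 of 4 actuated-array, 2 of 3 static-array and 3 of 5 low-intensity libraries. Plagl1 ranked last in 9 libraries, Meg3 in 8 and Igf2 in 4.

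**Figure D1:**
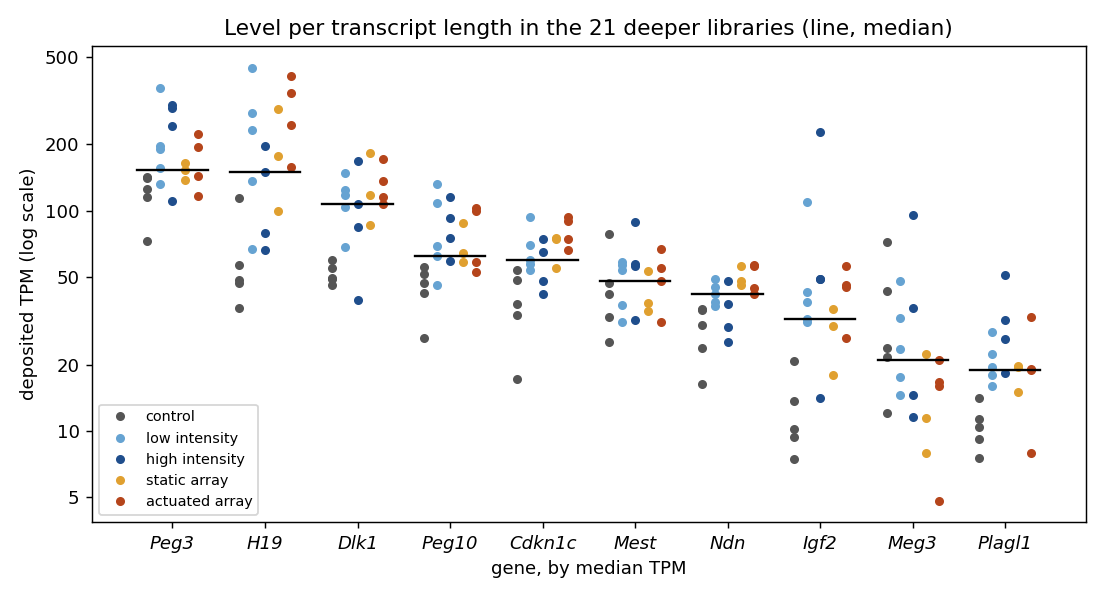
Deposited TPM (log scale) of the 10 genes, ordered by median, with a point for each of the 21 deeper libraries coloured by group and a black line at the median. Peg3 and H19 have medians of 152 and 150 TPM, and the points of neighbouring genes overlap.

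The genes differed in how evenly they were expressed. The noncoding RNA gene Meg3 had the widest range of normalised counts, 34.2-fold between 19.7 and 673.6 CPM, followed by Igf2 (12.3-fold) and H19 (10.9-fold). Ndn, which encodes necdin, a protein of postmitotic neurons, had the narrowest, 1.63-fold between 102.6 and 166.9 CPM. Peg10, a gene derived from a retrotransposon, spanned 2.27-fold, Peg3 2.36-fold, Mest 2.40-fold, Cdkn1c 2.43-fold, Dlk1 4.27-fold and Plagl1 5.59-fold.

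None of the 10 genes passed the test in any comparison, whether all 26 libraries or the deeper ones were fitted (edgeR quasi-likelihood test, Benjamini-Hochberg adjusted p over all genes, threshold 0.05). Few genes of any kind did. With all libraries, 0.0402% of 14907 genes were called for high intensity against control, 0.0268% for low intensity against control, 0.0134% for static array against control, and 0% for actuated against static array, for high against low intensity and for the difference between the actuation and the high-intensity effect. With the deeper libraries the shares of 14730 genes were 0.462%, 0.597% and 0.713%, and 0% for those last 3. At an unadjusted p under 0.05 in all libraries, 1 of the 10 was past the threshold for high intensity, 3 for low intensity, 3 for static array against control, 1 for high against low intensity, 1 for the difference of effects and 0 for actuation, where the shares over all genes were 7.04%, 5.23%, 5.27%, 2.91%, 6.57% and 3.86%. The deeper libraries gave 4, 3, 6, 3, 3 and 0 in the same order, where the shares over all genes were 15.9%, 15.2%, 12.6%, 7.68%, 6.69% and 0.38%. In all libraries DESeq2 called Igf2 for high intensity, and limma voom with quality weights called 0 of the 10 in each comparison. Folds are given below, 1 by 1, for the 21 of 60 pairs of gene and comparison with an unadjusted p under 0.05 in either fit or with deeper groups that did not overlap, and for Meg3 at high intensity, a choice made after the values were seen.

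**Figure D2:**
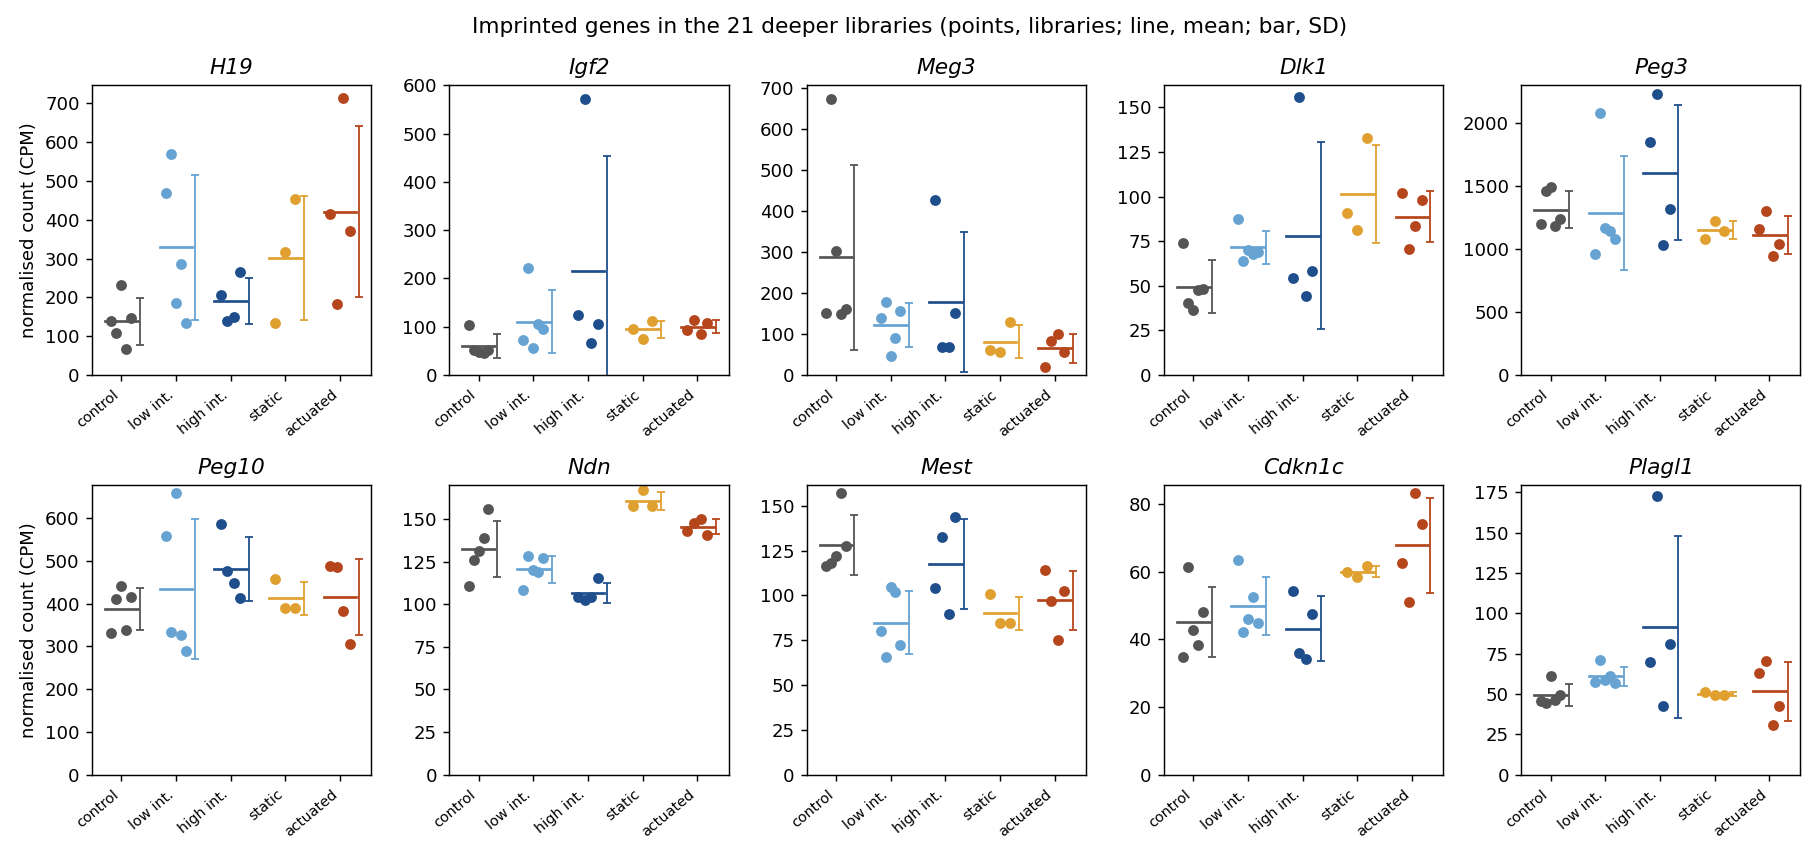
Normalised counts (CPM) of the 10 genes in the 21 deeper libraries by group, with a point per library, a line at the mean and a bar of 1 SD, drawn down to 0 at most. For Igf2, high-intensity replicate 2 at 571.2 CPM stands above the other libraries, the next being 222.1 CPM.

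Igf2 encodes insulin-like growth factor 2, a secreted fetal growth factor. Its normalised count in the control libraries was 103.8, 51.2, 46.5, 46.3 and 51.3 CPM (replicates 1, 2, 3, 5 and 6), and at high intensity 123.6, 571.2, 65.4 and 105.0 CPM (replicates 1, 2, 3 and 6). At low intensity it was 73.3, 222.1, 55.9, 106.2 and 94.2 CPM (replicates 1 to 5). All 9 libraries of both intensity groups were above 4 of the 5 control libraries, and control replicate 1 overlapped with them. The static array had 95.4, 75.4 and 112.0 CPM and the actuated array 93.2, 113.2, 83.8 and 108.0 CPM, also above those 4 controls. The means were 59.8 ± 24.7 CPM (SD, n = 5) in controls, 216.3 ± 237.8 (SD, n = 4) at high and 110.3 ± 65.4 (SD, n = 5) at low intensity.

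For high intensity against control the log2 fold change of Igf2 was 1.64 (SE 0.44, adjusted p = 0.169, edgeR) in all libraries and 1.84 (SE 0.45, adjusted p = 0.0541) in the deeper ones. Without high-intensity replicate 2 the deeper value was 0.71 (SE 0.33, adjusted p = 0.330, edgeR), so that library carried most of the difference. Without control replicate 1 it was 2.14 (SE 0.48, adjusted p = 0.0460, edgeR), and it also passed the threshold without high-intensity replicate 6 (2.07, adjusted p = 0.0242). The same held without low-intensity replicate 2 (adjusted p = 0.0483, edgeR) or 3 (adjusted p = 0.0472), which enter through the shared spread. DESeq2 on all libraries gave 1.71 (adjusted p = 0.00992), and edgeR with no filter on low counts gave 1.63 (adjusted p = 0.00404). For high against low intensity the fold was 0.76 (SE 0.44, adjusted p = 1, edgeR) and 0.97 (SE 0.44, adjusted p = 0.613), and it turned to -0.17 and -0.16 without high-intensity replicate 2.

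High-intensity replicate 2 was also the highest of its group, though followed by replicate 1, in markers of mesenchyme, the connective tissue lineage. The 10 markers checked, among them collagen genes, summed to 1968, 2441, 1160 and 962 CPM at high intensity (replicates 1, 2, 3 and 6). They summed to between 284 and 2630 CPM at low intensity and between 400.2 and 948 CPM in controls. In both intensity groups replicate 2 had the highest marker sum and the most Igf2, while high-intensity replicate 1, with 1968 CPM of markers, had 123.6 CPM of Igf2. The highest library was also the same for both on the static array (replicate 4) and the actuated array (replicate 2). In controls it was not: replicate 2 had the highest marker sum (948 CPM) with 51.2 CPM of Igf2, and replicate 1 the most Igf2 (103.8 CPM) with 539 CPM of markers. Each of the 10 markers had counts in every group, and their part in the Igf2 values was not tested. For high intensity against control 5 of the 10 were higher and 0 lower at an unadjusted p under 0.05 in the deeper libraries (15.9% of all genes), with a median log2 fold change of 1.11. The 10 skeletal muscle markers summed to 155, 171, 120 and 16.5 CPM at high intensity (replicates 1, 2, 3 and 6) and to between 8.5 and 66.9 CPM in controls, so replicate 2 was again the highest of its group. At low intensity they summed to between 6.5 and 141 CPM. Only 3 of these 10 were fitted, with a median log2 fold change of 2.17 for high intensity against control and 2 higher at an unadjusted p under 0.05. Actc1, Mymk, Myod1 and Myog had 0 counts in the deeper controls and Ckm at high intensity, and the part of muscle RNA in the Igf2 values was not tested either. In bulk RNA a larger share of cells of a type and more RNA per cell cannot be told apart.

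**Figure D3:**
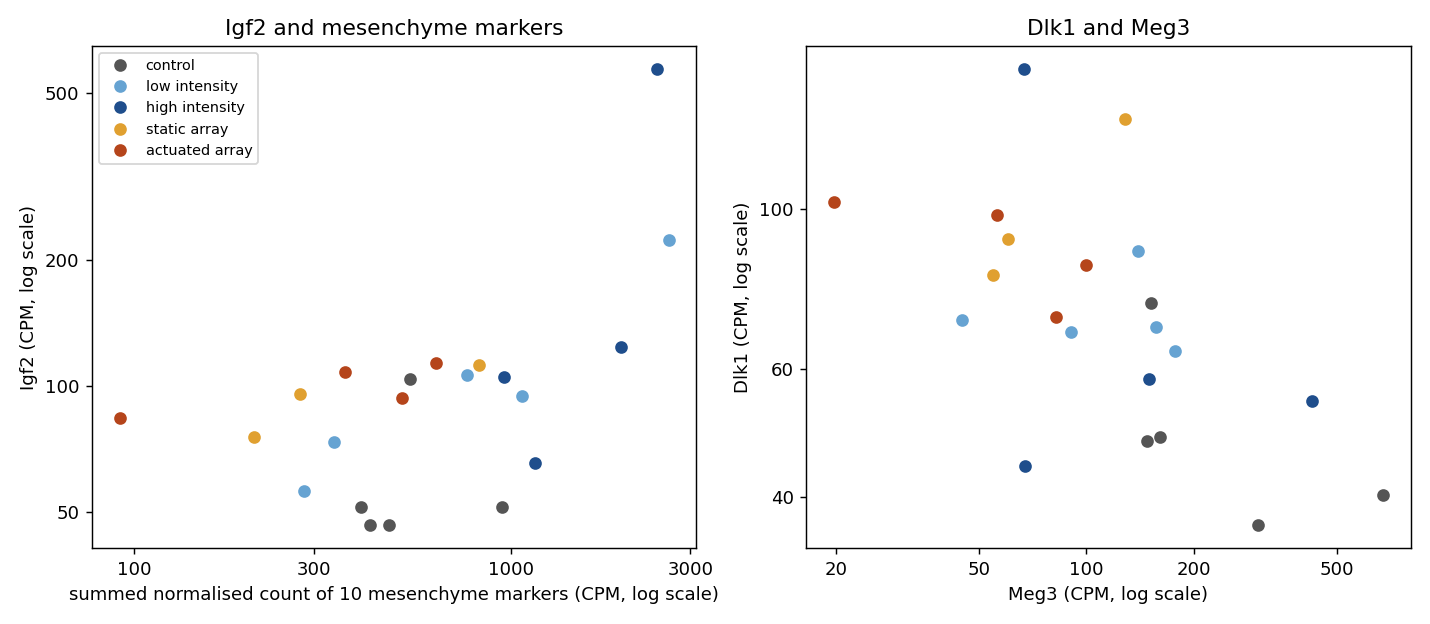
Left, normalised count of Igf2 against the summed normalised count of 10 mesenchyme markers (CPM, log scales), and right, Dlk1 against Meg3 (CPM, log scales), with a point per deeper library coloured by group. High-intensity replicate 2 (571.2 CPM Igf2, 2441 CPM markers) and low-intensity replicate 2 (222.1 and 2630 CPM) lie at the upper right of the left plot.

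H19, the maternally expressed noncoding partner of Igf2, was 137.7, 106.9, 231.1, 65.5 and 147.5 CPM in controls and 205.6, 137.8, 150.0 and 266.4 CPM at high intensity. At low intensity it was 469.2, 570.8, 186.0, 285.8 and 133.3 CPM. On the static array it was 134.1, 318.1 and 452.9 CPM (replicates 1, 2 and 4), and on the actuated array 415.8, 182.2, 369.8 and 715.3 CPM (replicates 1, 2, 4 and 3). Low-intensity and array libraries were mostly above the controls, and in each of these groups at least 1 library lay within the control range of 65.5 to 231.1 CPM. The log2 fold change was 1.10 (SE 0.42, adjusted p = 0.675, edgeR) for low intensity and 1.16 (SE 0.46, adjusted p = 0.690) for the static array against control in all libraries. The deeper libraries gave 1.25 (SE 0.39, adjusted p = 0.115, edgeR) and 1.13 (SE 0.43, adjusted p = 0.244), the latter falling to 0.73 without static-array replicate 4.

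The static array and the controls belong to different arms, whose depths did not overlap, so here and for every gene below static array against control also compares the arms and their depths, which cannot be told apart from it. Glial markers differed between the same groups. The 5 astrocyte markers summed to between 2772 and 3459 CPM on the static array and between 1794 and 2467 CPM in controls, and the 5 oligodendrocyte markers to between 208 and 494 CPM and between 67.8 and 155 CPM, neither pair overlapping. In the deeper libraries 3 of 5 astrocyte markers (median log2 fold change 0.61) and 4 of 4 fitted oligodendrocyte markers (median 1.87) were higher at an unadjusted p under 0.05, where the share over all genes was 12.6%, and 0 passed the edgeR test after adjustment. Among the oligodendrocyte markers Mog had 0 counts in the deeper controls. The part of glial RNA in the static-array values of the genes described here was not tested.

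Across the 21 deeper libraries, log2 CPM of H19 and Igf2 had a Pearson r of 0.21 (permutation p = 0.378) and a Spearman rho of 0.29 (permutation p = 0.196). Adjustment over the 2 planned pairs, this one and Dlk1 with Meg3, left both values as they were. The relation went from -0.25 within the 7 array libraries to 0.28 within the 14 libraries of the biochemical arm. Without the 2 libraries farthest from the median in H19, r was 0.13, and without the 2 farthest in Igf2 it was 0.41. It was 0.51 (permutation p = 0.0205) without high-intensity replicate 2, the library highest in Igf2, and 0.48 (permutation p = 0.0259) on log2(TPM + 1). On that TPM scale all genes together were shifted against controls, as given below, and the part of this shift in the value was not tested.

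Dlk1 encodes a transmembrane protein related to Notch ligands that keeps precursor cells undifferentiated. It was 74.2, 40.3, 36.5, 47.7 and 48.4 CPM in controls and 90.9, 81.1 and 132.9 CPM on the static array, so these groups did not overlap. The actuated array had 102.2, 70.8, 83.7 and 98.1 CPM. Low intensity had 87.4, 63.7, 70.2, 67.6 and 68.7 CPM, and high intensity 54.2, 156.1, 44.1 and 58.1 CPM. Replicate 2 was again the highest of the high-intensity libraries, while the other 3 lay within the control range of 36.5 to 74.2 CPM.

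For static array against control the log2 fold change of Dlk1 was 1.01 (SE 0.43, adjusted p = 0.765, edgeR) in all libraries and 1.03 (SE 0.28, adjusted p = 0.0872) in the deeper ones. With high-intensity replicate 2 left out of the shared spread, the deeper value was 1.03 (SE 0.19, adjusted p = 0.0109, edgeR), and without static-array replicate 4 it was 0.80 (adjusted p = 0.465). For high intensity against control the fold was 0.46 (SE 0.40, adjusted p = 0.924, edgeR) and 0.64 (SE 0.27, adjusted p = 0.238). Without high-intensity replicate 2 it was -0.076 in all libraries and 0.076 in the deeper ones.

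Meg3 is the maternally expressed noncoding gene of the Dlk1 cluster. Controls had 151.8, 673.6, 302.2, 147.4 and 160.0 CPM, all above the static array with 60.5, 54.8 and 127.8 CPM. The actuated array had 19.7, 82.0, 99.7 and 56.2 CPM, low intensity 138.9, 177.2, 45.0, 90.4 and 156.8 CPM, and high intensity 426.0, 66.9, 67.4 and 149.9 CPM. High-intensity replicate 1 was above 4 of the 5 controls, and replicates 2 and 3 were below all of them.

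For static array against control the log2 fold change of Meg3 was -0.99 (SE 0.63, adjusted p = 1, edgeR) in all libraries and -1.83 (SE 0.61, adjusted p = 0.177) in the deeper ones. Without control replicate 2, the highest library, the deeper value was -1.24 (edgeR adjusted p = 0.335) and that in all other libraries -0.39. For high intensity against control the direction turned between the fits, from 0.21 (SE 0.54, adjusted p = 0.978, edgeR) in all libraries to -0.68 (SE 0.53, adjusted p = 0.580) in the deeper ones. In all libraries but high-intensity replicate 4 it was -0.48. Leaving out control replicate 2 moved the deeper value to -0.085, and leaving out high-intensity replicate 1 moved it to -1.59. For low intensity against control it was -1.16 (SE 0.56, adjusted p = 0.930, edgeR) and -1.23 (SE 0.51, adjusted p = 0.236), or -0.64 in the deeper libraries without control replicate 2. For high against low intensity it was 1.37 (SE 0.56, adjusted p = 1, edgeR) and 0.55 (SE 0.53, adjusted p = 0.854). Without the shallow high-intensity replicate 4, where Meg3 had 331 counts, the most of the 10 genes, the value in all other libraries was 0.66. Without high-intensity replicate 1 the deeper value turned to -0.35, and without low-intensity replicate 3 it was 0.34.

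Across the 21 deeper libraries Dlk1 and Meg3 were inversely related, with a Pearson r of -0.59 (permutation p = 0.00477, adjusted over 2 pairs 0.00954) and a Spearman rho of -0.65 (permutation p = 0.00183, adjusted 0.00366). Without the 2 libraries farthest from the median in Dlk1, r was -0.55 (permutation p = 0.0145), and without the 2 farthest in Meg3 it was -0.48. The relation did not hold within the arms at the same threshold: r was 0.052 (permutation p = 0.912) over the 7 array libraries and -0.53 (permutation p = 0.0534) over the 14 of the biochemical arm. After group means were taken out it was -0.31 (permutation p = 0.174), and on log2(TPM + 1) it was -0.29 (permutation p = 0.195). After these results were seen, all 45 pairs of the 10 genes were computed. By Pearson r 7 pairs had an adjusted p under 0.05 over the 45, and by Spearman rho 0 pairs did. Dlk1 with Meg3 had the smallest r in size of those 7. The others were Peg3 with Plagl1 (0.73), Igf2 with Plagl1 (0.72), Dlk1 (0.65) and Peg3 (0.60), and H19 with Cdkn1c (0.60) and Mest (-0.59). Without the 2 libraries farthest from the median in the first gene of each pair, r was 0.51, 0.27, 0.64, -0.036, 0.43 and -0.41 in that order. For Igf2 and for Peg3 as first gene, these libraries were high-intensity replicate 2 and low-intensity replicate 2.

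Peg3, which encodes a zinc finger protein, was 1197, 1461, 1488, 1181 and 1234 CPM in controls and 1846, 2232, 1030.5 and 1317 CPM at high intensity. Low intensity had 2078 CPM in replicate 2 and between 958.9 and 1163 CPM in the others. The arrays were between 945.3 and 1298 CPM. In both intensity groups and on the actuated array, Peg3 was highest in replicate 2, as were Igf2 and the mesenchyme markers. On the static array it was highest in replicate 2 (1219 CPM), which had the lowest Igf2 (75.4 CPM) and the lowest marker sum (209 CPM). In controls it was highest in replicate 3 (1488 CPM), where neither Igf2 nor the marker sum was highest. The part of the markers in the Peg3 values was not tested. No comparison of Peg3 reached an unadjusted p under 0.05.

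Plagl1 encodes a zinc finger transcription factor that activates several other imprinted genes. It was between 44.5 and 61.1 CPM in the 5 controls, 69.6, 172.7, 42.5 and 81.0 CPM at high intensity, between 56.8 and 71.2 CPM at low intensity, 51.4, 49.3 and 49.4 CPM on the static array and between 30.9 and 70.4 CPM on the actuated array. At high intensity 3 of 4 libraries were above all controls. The log2 fold change was 0.83 (SE 0.44, adjusted p = 0.725, edgeR) in all libraries and 0.89 (SE 0.27, adjusted p = 0.105) in the deeper ones, and 0.39 (adjusted p = 0.425) without high-intensity replicate 2. For high against low intensity it was 0.42 (SE 0.44, adjusted p = 1, edgeR) and 0.58 (SE 0.26, adjusted p = 0.619), and without high-intensity replicate 2 it was -0.024 and 0.084.

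Cdkn1c encodes p57, an inhibitor of cyclin-dependent kinases that holds cells out of the cycle. It was 34.8, 61.3, 42.7, 38.4 and 48.1 CPM in controls and 59.9, 58.6 and 61.8 CPM on the static array, so 1 control library lay within the static range. The other groups were between 51.0 and 83.3 CPM (actuated array), between 42.3 and 63.6 CPM (low intensity) and between 34.3 and 54.5 CPM (high intensity). The static array differed from control by a log2 fold change of 0.24 (SE 0.37, adjusted p = 1, edgeR) in all libraries and 0.41 (SE 0.19, adjusted p = 0.367) in the deeper ones.

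Mest, also called Peg1, encodes a protein of the alpha/beta hydrolase fold. Controls had 116.2, 118.1, 122.3, 157.2 and 127.5 CPM, and every low-intensity library was below them, at 80.0, 65.5, 104.9, 101.8 and 72.1 CPM. The static array was also below all controls, at 100.6, 84.6 and 84.7 CPM. High intensity (104.2, 132.6, 89.5 and 143.8 CPM) overlapped with the controls, and the actuated array had between 75.2 and 114.4 CPM.

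For low intensity against control the log2 fold change of Mest was -0.73 (SE 0.31, adjusted p = 0.806, edgeR) in all libraries and -0.60 (SE 0.15, adjusted p = 0.0599) in the deeper ones. The deeper value passed the threshold without low-intensity replicate 3 (-0.69, edgeR adjusted p = 0.0294), without low-intensity replicate 4 (-0.66, adjusted p = 0.0499) and without high-intensity replicate 3 (-0.60, adjusted p = 0.0392). For static array against control it was -0.73 (SE 0.35, adjusted p = 0.901, edgeR) and -0.51 (SE 0.17, adjusted p = 0.182), and for high against low intensity 0.33 (SE 0.31, adjusted p = 1) and 0.48 (SE 0.16, adjusted p = 0.477). Of the 8 neural progenitor markers, 2 were called in the deeper libraries for low intensity against control: Nes and Vim rose by log2 1.43 (SE 0.33, adjusted p = 0.0443, edgeR) and 1.01 (SE 0.22, adjusted p = 0.0352), and Elavl4, a neuronal RNA-binding protein, fell by 0.59 on the log2 scale (SE 0.13, adjusted p = 0.0370). Over all genes, 0.597% were called for low intensity against control in the deeper libraries. The median over the 8 progenitor markers was 0.045, and Fabp7, at -0.33, was the 1 marker lower at an unadjusted p under 0.05. When each deeper library was left out in turn, Nes was called in 5 of 21 fits, Vim in 16 and Elavl4 in 11. In all libraries these values were 1.23, 0.81 and -0.60, with adjusted p of 0.582, 0.991 and 0.930 (edgeR). The 8 progenitor markers summed to between 1519 and 3207 CPM at low intensity and between 1230 and 1648 CPM in controls, and their part in the Mest values was not tested.

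Ndn was the steadiest of the 10. It was 110.7, 126.2, 131.1, 139.0 and 155.6 CPM in controls, 157.5, 166.9 and 157.4 CPM on the static array and 143.0, 147.9, 150.2 and 140.7 CPM on the actuated array. High intensity had 104.2, 102.6, 104.2 and 115.2 CPM, and low intensity between 108.4 and 128.5 CPM. The static array was above all controls and above the whole actuated array, and high intensity overlapped with the controls through replicate 6 alone.

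The log2 fold change of Ndn was 0.26 (SE 0.31, adjusted p = 1, edgeR) for static array against control in all libraries and 0.28 (SE 0.11, adjusted p = 0.252) in the deeper ones. For high intensity against control it was -0.36 (SE 0.29, adjusted p = 0.913, edgeR) and -0.31 (SE 0.10, adjusted p = 0.126). For actuated against static array it was -0.04 (SE 0.34, adjusted p = 1, edgeR) and -0.14 (SE 0.11, adjusted p = 1). Summed markers of 8 neuronal genes were between 2470 and 3682 CPM at high intensity and between 3548 and 3874 CPM in controls, and their part in the Ndn values was not tested.

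Peg10 was between 330.7 and 441.1 CPM in controls, 586.7, 475.1, 448.4 and 413.0 CPM at high intensity, and between 289.8 and 658.4 CPM at low intensity. It was between 389.5 and 457.1 CPM on the static array and between 304.8 and 487.1 CPM on the actuated array. At high intensity 3 of 4 libraries were above all controls, and no comparison of Peg10 reached an unadjusted p under 0.05.

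**Figure D4:**
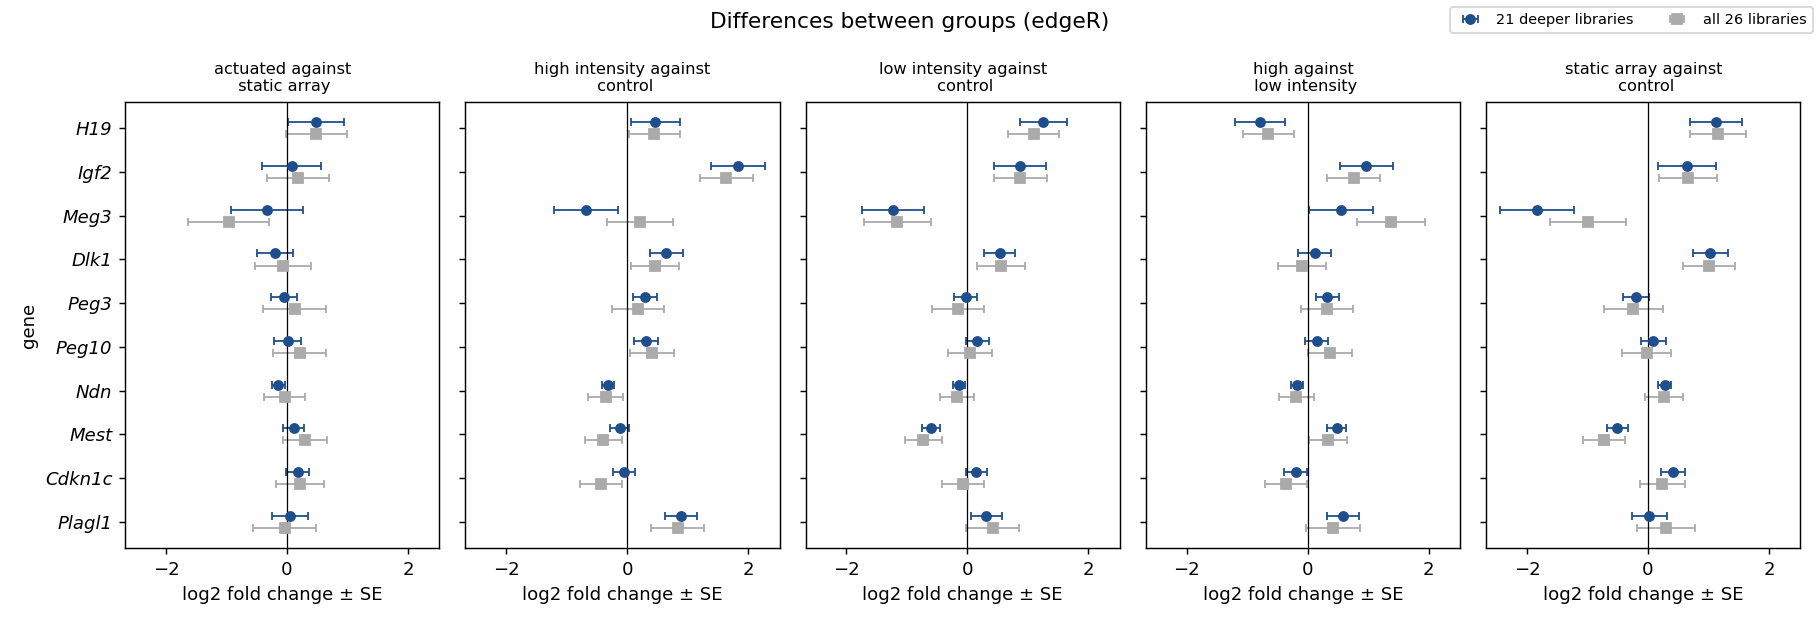
Log2 fold changes ± SE (edgeR) of the 10 genes in 5 comparisons, with blue circles for the fit of 21 deeper libraries and grey squares for that of all 26. The largest positive value is that of Igf2 for high intensity against control (1.84 in the deeper libraries) and the lowest that of Meg3 for static array against control (-1.83).

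Moving the array gave 0 of the 10 genes an unadjusted p under 0.05, where the shares over all genes were 3.86% in all libraries and 0.38% in the deeper ones. At shares this low, 0 of 10 does not show that these genes were unchanged. For actuated against static array the folds of the 10 genes had a median of 0.16 in all libraries and 0.03 in the deeper ones, beside -0.018 and -0.00042 over all genes, and every adjusted p of the 10 was 1. In the deeper libraries these groups overlapped for 9 of the 10 genes and not for Ndn. How many of all genes did not overlap was not counted, so this count has no background. The fold of Ndn changed sign to 0.020 in all other libraries without static-array replicate 2, and to 0.11 on log2(TPM + 1). The actuation effect less the high-intensity effect was -1.45 (SE 0.68, adjusted p = 0.671, edgeR) for Igf2 in all libraries and -1.76 (SE 0.66, adjusted p = 0.663) in the deeper ones. Deeper values for Dlk1 and Plagl1 were -0.84 (SE 0.40, adjusted p = 0.737, edgeR) and -0.84 (SE 0.39, adjusted p = 0.733), beside -0.52 and -0.87 in all libraries. Without high-intensity replicate 2 the deeper values of Igf2, Dlk1 and Plagl1 were -0.63, -0.27 and -0.34, and in all other libraries -0.52, 0.013 and -0.43.

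Comparisons with control share the control libraries, so their values are given side by side. The median log2 fold change of the 10 genes was 0.31 for high intensity, -0.01 for low intensity and 0.25 for the static array in all libraries, and 0.30, 0.16 and 0.18 in the deeper ones. The medians over all genes were -0.05, -0.05 and 0.09 in all libraries and 0.0033, -0.0083 and -0.0030 in the deeper ones. On the deposited TPM scale, log2(TPM + 1), all genes together were shifted by a median of 0.28, 0.19 and 0.74 in these comparisons. TPM levels of controls are for that reason not set against those of other groups, apart from the TPM folds listed as alternatives in the last section, which include this shift.

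Genes that lie in the same imprinted clusters gave 1 call. It was for static array against control in the deeper libraries, where 0.713% of all genes were called. Of 36 such neighbours found, 20 were fitted, and in the deeper libraries Kcnq1ot1, the noncoding RNA that silences the Cdkn1c domain on the paternal chromosome, was lower on the static array than in control. Its level was 51.2, 54.8 and 70.9 CPM on the static array and between 167.2 and 258.8 CPM in controls. The actuated array had between 50.0 and 115.6 CPM, also below all controls. Low intensity had between 87.1 and 170.7 CPM, and high intensity between 200.8 and 431.3 CPM. For static array against control Kcnq1ot1 fell by 1.74 on the log2 scale (SE 0.27, adjusted p = 0.00276, edgeR). It was called in 21 of 21 fits that left out 1 deeper library (values from -1.88 to -1.62). In all libraries the value was -0.57 (SE 0.45, adjusted p = 1, edgeR). The neighbour of highest level, Cd81, a tetraspanin gene, had a mean of 362 TPM. Igf2os, antisense to Igf2, was at most 8.1 CPM, and because strand use in the counting is not given, overlapping pairs such as this cannot be fully told apart.

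Of 27 other imprinted genes found, 26 were fitted in the deeper libraries, and Nnat, which encodes neuronatin, a small membrane protein of developing neurons, rose on the static array against control. It was 80.1, 158.7 and 172.0 CPM there and 51.8, 50.1, 85.8, 67.4 and 66.9 CPM in controls, so replicate 1 of the array lay within the control range. The log2 fold change was 1.09 (SE 0.25, adjusted p = 0.0406, edgeR) in the deeper and 0.88 (SE 0.35, adjusted p = 0.691) in all libraries. Over all genes, 0.713% were called for this comparison in the deeper libraries. Leaving out 1 deeper library ended the call in 9 of 21 fits, namely for static-array replicates 2 and 4, actuated-array replicates 1 and 4, low-intensity replicate 4 and control replicates 1, 2, 5 and 6, with values from 0.91 to 1.11 and adjusted p of 0.0514 to 0.265 (edgeR). Gnas, a G protein gene, had the highest mean of this list at 555 TPM. The other comparisons called 0 of the list.

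The IGF pathway list holds receptors and their substrates, binding proteins, processing factors and the related ligands Igf1 and Ins1, and also DNA- and RNA-binding regulators of the pathway (Hmga1, Hmga2, Lin28a, Lin28b, Igf2bp1, Igf2bp2 and Igf2bp3). None of its 24 fitted genes of 28 passed the test in any comparison, by edgeR in all or in the deeper libraries. In the deeper libraries 3 were higher and 1 lower at an unadjusted p under 0.05 for high intensity against control, and likewise 3 and 1 for low intensity, where the shares over all genes were 15.9% and 15.2%. The list's median fold was 0.17 and 0.18 in these comparisons. Igfbp5, an IGF-binding protein gene, had the highest mean level, 159 TPM.

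None of the 10 CDK inhibitor and retinoblastoma family genes was called either. At an unadjusted p under 0.05, 1 of them was higher for high and 1 for low intensity in the deeper libraries (15.9% and 15.2% of all genes in either direction), and Cdkn1a, which encodes p21, had the highest mean at 39.0 TPM. Of 20 genes that set or keep imprints, 18 were fitted and 0 were called, with 2 higher and 2 lower at an unadjusted p under 0.05 for static array against control in the deeper libraries (12.6% of all genes). Atrx, a chromatin remodeller gene, had the highest mean of these at 156 TPM.

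Genes with the most similar pattern to each of the 10 were sought among 11766 genes with a mean of at least 5 CPM, by Pearson r of log2 CPM over the 21 deeper libraries, as a description with no test. The libraries share depth and group, which can raise such values. Igf2 was closest to Gpc3 (r = 0.87), which encodes glypican 3, a cell surface proteoglycan, then to Txndc17 (0.84) and Plxdc2 (0.82). Meg3 was closest to Rian (0.85), the next noncoding RNA gene of its own cluster, then to Fam193b (0.78) and Capns1 (0.76). Rian was between 62.4 and 264.6 CPM in controls and between 38.4 and 110.9 CPM on the static array.

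Ndn was closest to Dtd1 (0.87), Stmn3 (0.86), a stathmin gene of neurons, and Kcnip1 (0.86), which encodes a potassium channel-interacting protein. Cdkn1c was closest to Prex1 (0.87), Slc1a3 (0.85), a glutamate transporter gene of astroglia, and Wscd1 (0.84). Mest was closest to Hectd4 (0.86), Psd3 (0.85) and Epha5 (0.82). Peg3 was closest to Cdh11 (0.82), a cadherin gene of mesenchyme, Gm49708 (0.79) and Bicc1 (0.77).

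Dlk1 was closest to Zfp503 (0.80), Selenbp1 (0.78) and Fzd1 (0.78), a Wnt receptor gene. H19 was closest to Ckb (0.79), which encodes brain creatine kinase, S100a1 (0.76) and Sulf2 (0.75). Plagl1 was closest to Rc3h1 (0.77), Fkbp14 (0.75) and Tgfb2 (0.71), a growth factor gene. Peg10 had the least similar neighbours, Rbm12b1 (0.65), Csf1r (0.64) and Krt18 (0.64).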

How the data were processed

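The authors deposited expected counts per gene, not scaled for depth and written as whole numbers, as read from the values, since no header states how they were made. The TPM values, also deposited by the authors, are scaled to 1000000 per library. The submitters' processing notes name BWA 0.7.12-r1039, bedtools 2.25.0, STAR and Salmon, and the builds mm10, GRCm39 and hg19, with no role, so no gene coordinates are taken from the tables. Libraries were made from fragmented total RNA (4 ng, or the full volume for the 8 weakest samples, which are not named) with rRNA depletion and 15 cycles in the second PCR, per the labels' protocols. No molecular identifiers are mentioned, so limits cover counting error only.

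Rounded counts were fitted with edgeR 4.0.16 (R 4.3.3): filterByExpr, TMM, quasi-likelihood F-test, 1 coefficient per group, Benjamini-Hochberg adjustment over all fitted genes. The fit of all 26 libraries was the main test, and that of the 21 deeper libraries stood beside it. TMM over all libraries gave low-intensity replicate 6 a factor of 36.7. After this was seen, CPM values were scaled over the deeper libraries alone. SE came from the fold and the F statistic. Correlations used log2 CPM with a prior count of 2 and 100000 permutations, two-sided. The alternatives used limma 3.58.1, DESeq2 1.42.0, other filters and scalings, a replicate block and leaving out each library. The edgeR code was tested on data simulated for the deeper libraries at a single dispersion, with checks on high intensity against control. The fit of all 26 libraries and the correlations were not tested in this way.

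The 10 genes, the gene lists, the planned pairs and the settings were chosen with earlier results of these data known, and which folds are given 1 by 1 was decided after their values were seen. Named from the lists were genes with an adjusted p under 0.05 in either fit and the gene of highest mean TPM of each list, and as similar genes the 3 with the highest r. Markers named are those with such a p, Fabp7 for its unadjusted p, and some with 0 counts in a group. Igf2os, the microRNA genes and some IGF pathway genes were named outside these rules. Marker genes Slc5a7 (motor neuron, static array against control, log2 fold change -1.88, edgeR adjusted p = 0.00392) and Cdh1 (epithelium, high intensity against control, 3.09, adjusted p = 0.0420) also passed in the deeper libraries. Of the listed symbols, 36 of 37 cluster neighbours and 27 of 30 other imprinted genes matched 1 row. All 325 pairs of libraries differed by more than sampling noise.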

Additional observations from a re-analysis of the deposited data

Results flagged for a closer look

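Within the deeper libraries of groups with 4 or 5, the highest or lowest library of the 10 genes stood apart from the rest of its group in 8 of 40 gene and group pairs, by Dixon's ratio at its 95% critical value. Chance flags about 1 in 20. High-intensity replicate 2 was apart for Igf2 (571.2 CPM) and Dlk1 (156.1 CPM), and low-intensity replicate 2 for Peg3 (2078 CPM). These libraries had the highest summed mesenchyme markers of their groups, 2441 and 2630 CPM, whose part was not tested. Control replicate 1 was apart for Igf2 (103.8 CPM), control replicate 3 for Plagl1 (61.1 CPM) and control replicate 5 for Mest (157.2 CPM). The mesenchyme markers summed to 539 CPM in control replicate 1, below control replicate 2 with 948 CPM. Low-intensity replicate 1 was apart for Dlk1 (87.4 CPM) and high-intensity replicate 6 for Ndn (115.2 CPM).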

How the results depend on the processing

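The count of the 10 genes called stayed at 0 in every comparison under all alternatives run, with these exceptions. For high intensity against control it was 1 (Igf2) with no low-count filter and with the DESeq2 Wald test, and from 0 to 1 when libraries were left out. For low intensity and for static array against control it was from 0 to 1 when libraries were left out (Mest and Dlk1). With the replicate number as a block, 0 of the 10 were called in each comparison, in all and in the deeper libraries. Deviations from group means had r from -0.27 to 0.24 between same-numbered libraries and from -0.28 to 0.31 between others. For actuated against static array, replicates 1 (0.22) and 4 (0.24) were above every other pair (at most 0.13), and replicate 2 (-0.15) was not. The numbers were not used for pairing in the main fits. Over all genes, calls under settings other than leaving out a library ranged from 0 to 1137 for actuated against static array, 0 to 220 for high intensity, 0 to 153 for low intensity, 0 to 107 for high against low intensity, 1 to 219 for static array against control and 0 to 3193 for the difference of effects. The highest of each came with no low-count filter, where the fit holds 40504 genes. When libraries were left out of the deeper fit, calls over all genes were from 0 to 397 for high intensity, 2 to 264 for low intensity and 18 to 141 for static array against control. For the block, the calls over all genes in the deeper libraries were 2, 8 and 36 for high intensity, low intensity and static array against control, beside 68, 88 and 105.

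Of 3540 alternative fold values of the 10 genes, 271 had the opposite sign to the fit of all libraries, none of them called and the largest 1.59 in size. Among the folds given 1 by 1 there were 44 of 1298, and the cause was not tested. Of these, Meg3 for high intensity was -0.68 in the deeper libraries, -0.68 there with the compared groups alone, -0.56 there with the replicate block and -0.16 by limma voom with quality weights. Folds on the TPM scale that use the controls include the shift of all genes against them, described above for log2(TPM + 1). On log2(TPM + 1) and log2(TPM + 0.1), Ndn for actuated against static array was 0.11 and 0.11, Dlk1 for high intensity -0.044 and -0.56, Ndn for high intensity 0.32 and 0.34, Mest for static array against control 0.10 and 0.11, and Dlk1 for the difference of effects 0.39 and 0.92, and Meg3 for static array against control was 0.036 on the second. When libraries were left out, the ranges were -0.16 to 0.020 (Ndn, actuated against static array), -0.076 to 0.84 (Dlk1, high intensity), -1.59 to 0.80 (Meg3, high intensity), -0.17 to 1.40 (Igf2, high against low), -0.35 to 1.59 (Meg3, high against low), -0.024 to 0.81 (Plagl1, high against low) and -1.04 to 0.013 (Dlk1, difference of effects).

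The correlation of H19 and Igf2 was -0.25 in array libraries and 0.48 on log2(TPM + 1), and from 0.091 to 0.51 when libraries were left out, the highest without high-intensity replicate 2 (permutation p = 0.0205). That of Dlk1 and Meg3 was 0.052 in array libraries, -0.53 in those of the biochemical arm, -0.31 for deviations from group means and -0.29 on log2(TPM + 1). Both values on log2(TPM + 1) include the shift of all genes against controls. Few counts on protein-coding genes limit 5 of the 26 libraries most, and normalised values of the 10 genes are not given for them. In control replicate 4 such counts were 272212 of a total of 1457250. All 5 entered the fit of all libraries.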
